A study of Mus musculus with 15 samples.

Results

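The mitochondrial ribosomal protein genes are the nuclear genes whose symbols begin with Mrpl, for the large subunit, or Mrps, for the small subunit, followed by a digit. They numbered 76 of the 11551 genes in any of the 4 deposited tables, 47 named for the large and 29 for the small subunit. A table holds only those protein-coding genes that had passed the authors' adjusted p in 1 comparison, so a member absent from all of them had passed in none. Of 78 protein-coding genes with such a symbol in the GENCODE M21 annotation, Mrpl33 and Mrpl53 are in no table. The members lie on 17 chromosomes.

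RNA was sequenced from mouse Abelson cells, early B-lineage cells immortalised by the viral kinase v-Abl, in 5 groups of 3 libraries, and all of them had spent 48 h in imatinib, which inhibits that kinase. Rag_SPIC_tet_NoDOX and Rag_SPIC_tet_DOX are Rag -/- cells with a SPIC construct under tetracycline control, without and with doxycycline (DOX), and carry no hairpin. Rag_SPIC_tet_DOX_shBCLAF1 is the same line with DOX and a hairpin named shBCLAF1. Art is the Art -/- line with no hairpin, and Art_shBCLAF1 is that line with shBCLAF1. The labels give passage 10 to 15 and name pre-B cells as the source. They name no control hairpin. Nothing used here says whether a line is 1 clone or whether the replicates of a group were grown separately, so each p-value speaks only of the spread among these libraries, which may be technical.

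Mitochondria carry their own ribosome, the mitoribosome, which makes the few respiratory chain proteins encoded in mitochondrial DNA. Its ribosomal RNAs come from that DNA, but every one of its proteins is encoded in the nucleus, made in the cytosol and imported. Some descend from bacterial ribosomal proteins and others are particular to mitochondria. The symbols do not always match the place in the particle: Mrps18a and Mrps30 are now placed in the large subunit, and Mrps36 is now known as a component of the 2-oxoglutarate dehydrogenase complex. All were kept under their symbols here.

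PU.1 and SPIC, which the study's title names, are ETS-family transcription factors, and ETS factors bind DNA at a GGAA core. RefSeq promoter windows of the build GRCm38.p6, 250 bases before to 50 after the gene's start, were at hand for 67 members. The string CCGGAAG, the general ETS form, was found on either strand in 24 of them (35.8%). It was found in 20.8% of 9102 measured genes with a window and in 9.93% of all 27025 genes with a window. Measured here means among the 11551 genes, each called by the authors at least once. The PU.1-type string GAGGAAGT was found in 1 member (1.49%, against 3.82% of measured genes). It differs from CCGGAAG before the shared GGAAG, so both cannot match at the same bases. Of 4 members on which later results turn, Mrps22, Mrps26, Mrpl3 and Mrpl52, the 80 bases before the start are shown 5′ to 3′ on the gene's strand, chosen after their values were seen, with the CCGGAAG match or its reverse complement in capitals. They lie at chr9:98601680-98601759 (minus strand), chr2:130563677-130563756 (plus), chr9:105053188-105053267 (plus) and chr14:54426829-54426908 (plus).
Mrps22: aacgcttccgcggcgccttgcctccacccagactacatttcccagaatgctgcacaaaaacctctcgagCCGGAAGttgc
Mrps26: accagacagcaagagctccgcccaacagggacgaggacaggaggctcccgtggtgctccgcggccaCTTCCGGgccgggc
Mrpl3: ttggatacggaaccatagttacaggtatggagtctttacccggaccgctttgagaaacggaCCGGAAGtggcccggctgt
Mrpl52: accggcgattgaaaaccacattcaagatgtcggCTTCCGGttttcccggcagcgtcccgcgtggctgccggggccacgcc

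The match ended 5 bases before the start in Mrps22, 8 in Mrps26, 13 in Mrpl3 and 41 in Mrpl52. Among the other strings searched, the YY1 string AAGATGGC was in 17.9% of the 67 members against 5.54% of measured genes, the NRF1 core GCATGCGC in 10.4% against 6.31%, and the E box CACGTG in 7.46% against 11.7%. These are matches of letters and no measure of binding.

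Effective library sizes were 17.2 to 27.1 M reads, except for Art replicate 3 with 5.81 M. That library also had 145 genes with 0 reads, against 19 to 56 elsewhere. Its members differed from the mean of Art replicates 1 and 2 by -1.73 (Mrpl13) to 2.41 (Mrps24) on the log2 scale, with 23 of 76 more than 1 unit away, whereas replicates 1 and 2 differed by at most 0.47. Across the 76 members, which share a library, the difference had a Spearman correlation of 0.43 with transcript GC content. Counts and medians for Art are therefore also given without that library, as are single differences where it moved them most, and whether it or the others stand closer to the cells was not tested. Bclaf1 mRNA, the named target of the hairpin, was at 7.99, 8.05 and 8.10 log2 CPM (read counts scaled to library size) in Rag_SPIC_tet_DOX_shBCLAF1 against 7.76, 7.69 and 7.73 in Rag_SPIC_tet_DOX, and at 8.29, 8.35 and 8.32 in Art_shBCLAF1 against 7.81, 7.75 and 6.41 in Art. Every labelled library thus had more of it than any library of its line without the label, the reverse of a knockdown, so these libraries are called by their label throughout.

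Summed over the 76 members, the mitochondrial ribosomal protein mRNAs made up 0.183% to 0.375% of the reads, with the highest shares in the libraries labelled shBCLAF1. The sums were 1991, 2089 and 2068 CPM in Rag_SPIC_tet_NoDOX and 2812, 2140 and 2291 CPM in Rag_SPIC_tet_DOX. Rag_SPIC_tet_DOX_shBCLAF1 reached 3340, 3276 and 3238 CPM. The highest unlabelled library thus stayed below the lowest labelled one, and among the unlabelled ones Rag_SPIC_tet_DOX replicate 1 stood above its own group. In Art the sums were 1825 and 1851 CPM for replicates 1 and 2 and 2637 for replicate 3. Art_shBCLAF1 reached 3751, 3222 and 3409 CPM. These libraries are bulk RNA, in which fewer cells of a kind and less RNA per cell cannot be told apart.

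**Figure D1:**
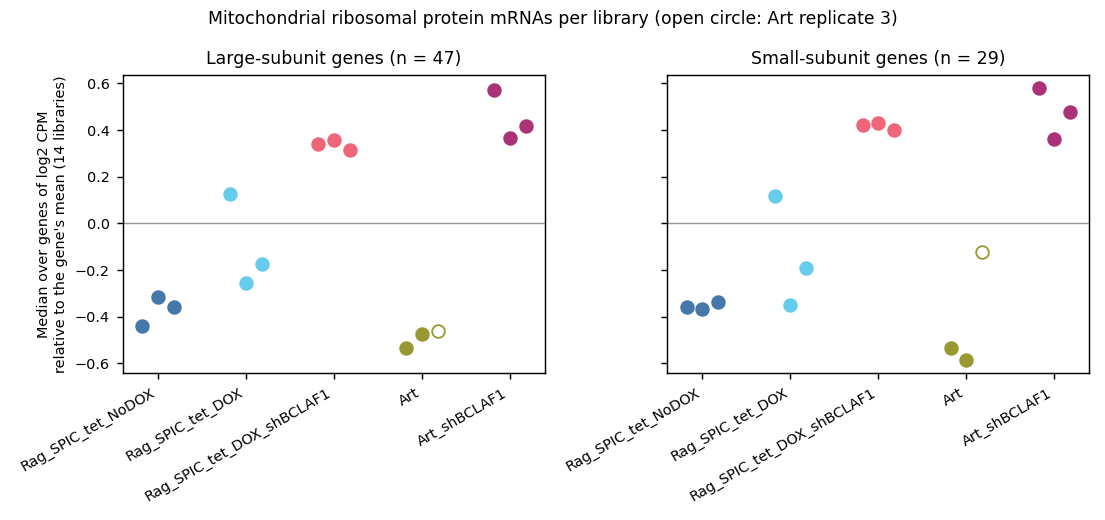
Median over large-subunit genes (left, 47) and small-subunit genes (right, 29) of log2 CPM minus each gene's mean over the 14 libraries other than Art replicate 3, 1 point per library; the open circle is Art replicate 3. The 6 libraries labelled shBCLAF1 lie between 0.31 and 0.58, and the only other library above 0 is Rag_SPIC_tet_DOX replicate 1, at 0.12 in both panels.

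Taken relative to each gene's own mean over the 14 libraries, the member median was 0.38, 0.37 and 0.33 in Rag_SPIC_tet_DOX_shBCLAF1 and 0.58, 0.36 and 0.43 in Art_shBCLAF1. It was -0.53 and -0.51 in Art replicates 1 and 2, -0.28 in replicate 3, and between -0.38 and -0.35 in Rag_SPIC_tet_NoDOX. Rag_SPIC_tet_DOX spread from -0.29 to 0.12. The same median over all 11551 genes stayed between -0.03 and 0.03 in every library. In 53 members all 6 libraries labelled shBCLAF1 lay above the other 8 with Art replicate 3 left out, a pattern held by 19.2% of all genes. In 41 members these 6 libraries also lay above Art replicate 3, and the matching share of all genes was not computed. By group means, with Art from replicates 1 and 2, Art_shBCLAF1 was the highest group in 50 members and Rag_SPIC_tet_DOX_shBCLAF1 in 23. Art was the lowest in 55 and Rag_SPIC_tet_NoDOX in 16. How often each group ranked highest or lowest over all genes was not computed.

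**Figure D2:**
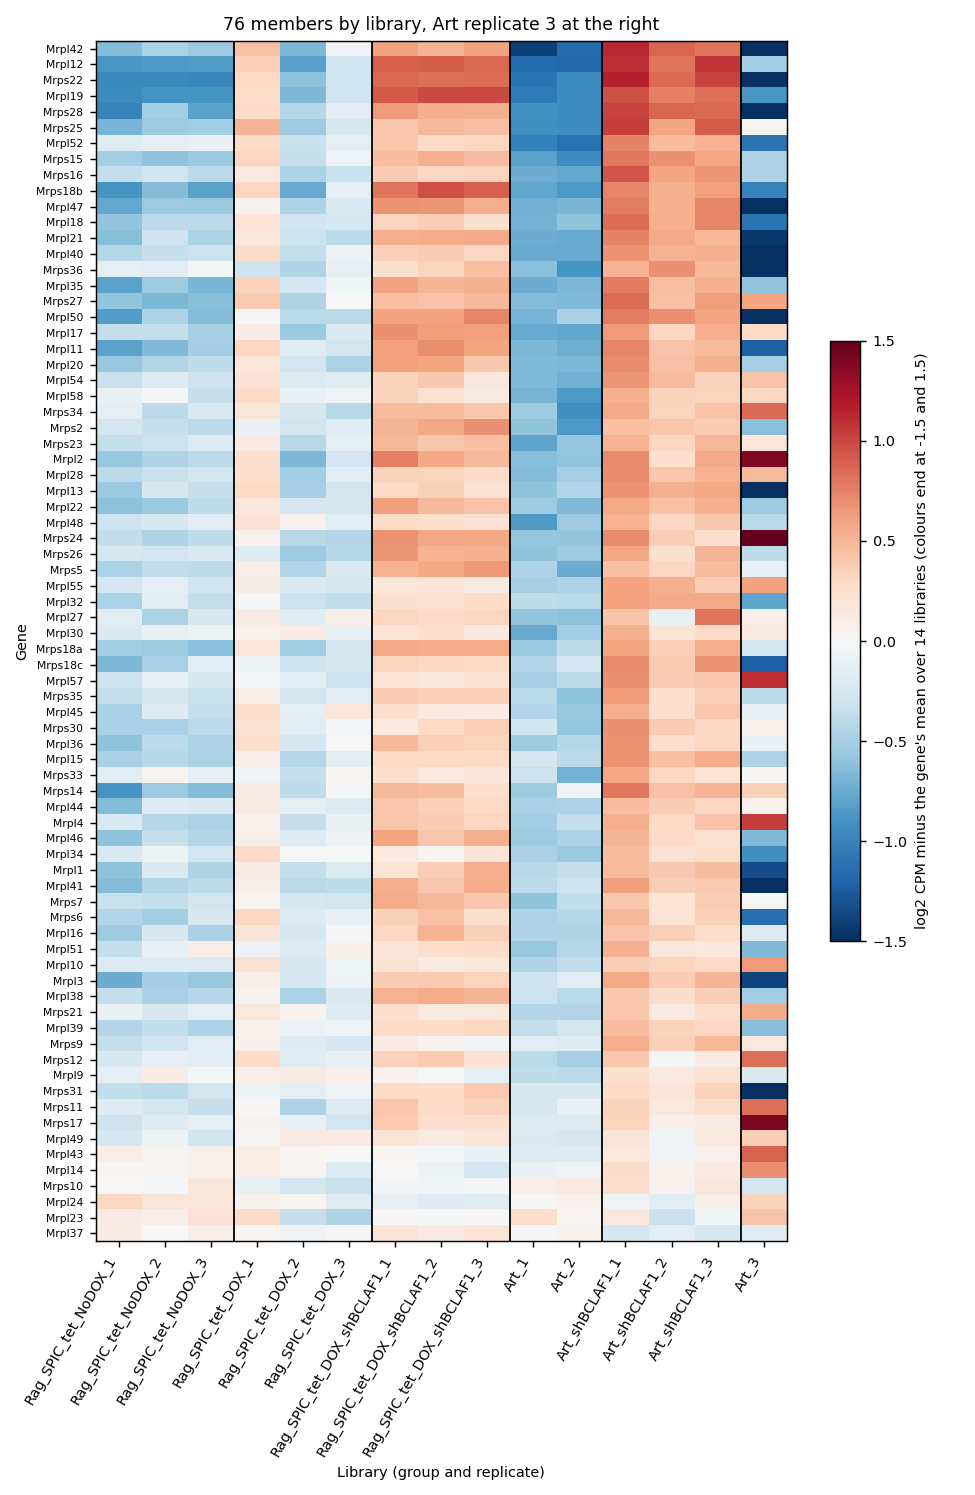
Colour gives log2 CPM minus the gene's mean over 14 libraries (1 row per member, 1 column per library, Art replicate 3 at the right, colours ending at -1.5 and 1.5), with members ordered by the Art_shBCLAF1 difference computed without that library. The blocks of the 2 labelled groups are red from Mrpl42 at the top almost to the bottom, where Mrpl43, Mrpl14, Mrps10, Mrpl24, Mrpl23 and Mrpl37 show little contrast.

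Both subunits followed the same order of groups. The ratio of the large-subunit to the small-subunit sum was 2.0 ± 0.07 (SD, n = 3) in Rag_SPIC_tet_NoDOX, 1.99 ± 0.04 in Rag_SPIC_tet_DOX and 1.80 ± 0.02 in Rag_SPIC_tet_DOX_shBCLAF1. It was 1.90 and 1.97 in Art replicates 1 and 2, 1.58 in replicate 3, and 1.85 ± 0.02 in Art_shBCLAF1. The labelled libraries of the Rag -/- line, at 1.78 to 1.82, lay below the 6 other libraries of that line, at 1.95 to 2.08. Per kilobase of transcript the members spanned a wide range of levels, from a mean of 0.22 log2 CPM per kb for Mrpl23 to 6.03 for Mrpl34. The length is that of all annotated exons merged, 4883 bases for Mrpl23 and 607 for Mrpl34.

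The libraries labelled shBCLAF1 were first compared with the unlabelled ones of their own line, in the Rag -/- line with DOX in both groups. In the Rag -/- line, 47 of 76 members were higher in Rag_SPIC_tet_DOX_shBCLAF1 than in Rag_SPIC_tet_DOX and 0 were lower (limma, adjusted p below 0.05 over all 11551 genes, two-sided). Of all genes, 53.6% changed, 28.5% higher and 25.1% lower, and both shares come from tables that hold only genes called by the authors at least once. The median log2 difference was 0.47 over members and 0.05 over all genes. In 58 members the 2 groups did not overlap with the labelled one higher and in 1 with it lower, against 35.5% and 30.6% of all genes. Among large-subunit genes 27 of 47 rose, and among small-subunit genes 20 of 29.

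Mrpl19, a large-subunit protein with a bacterial counterpart, had the largest difference. It was at 5.85, 5.93 and 5.92 log2 CPM in the labelled libraries and at 5.2, 4.25 and 4.63 in Rag_SPIC_tet_DOX, a log2 difference of 1.20 (SE 0.22, adjusted p = 0.00545), or 2.30-fold. The labelled libraries lay within 0.1 of each other, while the unlabelled ones spread over almost 1 unit with replicate 1 the highest. Mrpl12, the stalk protein that recruits translation factors and also binds mitochondrial RNA polymerase, was at 6.29, 6.29 and 6.25 against 5.74, 4.57 and 5.09, a difference of 1.14 (SE 0.27, adjusted p = 0.013). Its call was lost without Rag_SPIC_tet_DOX replicate 3. Mrpl10, the base on which Mrpl12 sits in the stalk, differed by 0.20 (SE 0.12, adjusted p = 0.202) and did not pass.

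On the small-subunit side Mrps18b, 1 of 3 paralogs of bacterial S18, was at 4.83, 5.0 and 4.92 against 4.35, 3.28 and 3.89, a difference of 1.08 (SE 0.25, adjusted p = 0.013). The groups did not overlap, but the call was lost without Rag_SPIC_tet_DOX_shBCLAF1 replicate 2. Its paralogs rose less, Mrps18a by 0.75 (SE 0.17, adjusted p = 0.0103) and Mrps18c by 0.53 (SE 0.10, adjusted p = 0.0052). Mrps22, a mitochondria-specific protein in which mutations cause a respiratory chain deficiency, was at 4.97, 4.92 and 4.94 against 4.40, 3.48 and 3.80, a difference of 1.05 (SE 0.22, adjusted p = 0.00872). Mrps26, another mitochondria-specific protein, was at 6.20, 6.07 and 6.08 against 5.35, 5.01 and 5.12, a difference of 0.95 (SE 0.10, adjusted p = 0.000866). Its labelled libraries all lay above the unlabelled ones. Mrpl19, Mrps22 and Mrps26 passed in each of 6 fits that left out 1 library.

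Other members of known role differed by smaller amounts. Mrps5 and Mrps7, core proteins of the small subunit, rose by 0.77 (SE 0.14) and 0.65 (SE 0.10). Mrps12, the counterpart of the bacterial decoding-centre protein S12, differed by 0.33 (SE 0.13, adjusted p = 0.0794), and Mrps27, which has pentatricopeptide repeats, by 0.47 (SE 0.20, adjusted p = 0.0854), so neither passed. Mrpl3 and Mrpl11 rose by 0.45 (SE 0.10) and 0.68 (SE 0.16), and Mrpl44 by 0.43 (SE 0.10). Mrps34, Mrps35 and Mrps36 rose by 0.61 (SE 0.16), 0.48 (SE 0.10) and 0.63 (SE 0.15). Mrpl45, which helps hold the ribosome to the inner membrane, differed by 0.06 (SE 0.11) and Mrpl23, at the exit of the peptide tunnel, by 0.18 (SE 0.21), and neither passed.

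At the small end of the called members were Mrpl37 at 0.19 (SE 0.06, adjusted p = 0.0274), Mrpl51 at 0.32, Mrpl39 at 0.33, Mrpl57 at 0.37 and Mrpl36 at 0.39. Mrpl37 was no longer called when libraries were centred on their median (0.09, adjusted p = 0.312). Without Rag_SPIC_tet_DOX_shBCLAF1 replicate 1 the count of higher members fell to 31, and without its replicate 2 to 29, with 0 lower in either case. The share of all genes changed fell as well, from 53.6% to 36.5% and 34.2%. Of 28 called members named here or among the differences between lines, 12 passed in all 6 fits that left out 1 library.

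In the Art -/- line, for which the labels name no DOX, the comparison of labelled with unlabelled libraries gave larger differences. In Art_shBCLAF1 49 of 76 members were higher than in Art and 0 were lower, where 49% of all genes changed, 25% higher and 24.1% lower. The median log2 difference was 0.87 over members and 0.05 over all genes. Without Art replicate 3, 72 members were higher and 1 was lower, with a median of 0.97, where 80.1% of all genes changed, 40.6% higher and 39.5% lower. Large-subunit genes rose in 31 of 47 cases (44 without that library) and small-subunit genes in 18 of 29 (28 without it). In 54 members the groups did not overlap with Art_shBCLAF1 higher and in 0 with it lower, against 33.9% and 31.7% of all genes.

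Mrpl42, a mitochondria-specific protein of the large subunit, had the largest difference, 2.35 (SE 0.18, adjusted p = 0.000279), or 5.11-fold. It was at 6.03, 5.78 and 5.70 log2 CPM in Art_shBCLAF1 and at 3.50, 3.75 and 3.20 in Art. The groups lay almost 2 units apart, and without Art replicate 3, the lowest, the difference was 2.21 (SE 0.11). Mrps22, whose promoter is shown above, was at 5.26, 4.95 and 5.12 against 3.0, 3.17 and 2.57, a difference of 2.20 (SE 0.20, adjusted p = 0.000419), or 4.59-fold, and 2.03 (SE 0.11) without that library. Mrps28, the counterpart of bacterial S1, was at 4.71, 4.57 and 4.55 against 2.79, 2.77 and 1.82. Its difference of 2.15 (SE 0.29, adjusted p = 0.0016) became 1.83 (SE 0.10) without Art replicate 3, which was almost 1 unit below the others and held only 20 Mrps28 reads.

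Mrpl12 was at 6.49, 6.20 and 6.46 against 4.24, 4.21 and 4.88, a difference of 1.94 (SE 0.22, adjusted p = 0.000859). Here Art replicate 3 was the highest of its group, and without it the difference was 2.16 (SE 0.09). Mrpl19 was at 5.88, 5.69 and 5.75 against 3.87, 4.0 and 4.05, a difference of 1.80 (SE 0.12, adjusted p = 0.000187), with Art replicate 3 within 0.2 of the others. Mrpl52, a mitochondria-specific protein whose promoter is also shown, was at 6.33, 6.05 and 6.11 against 4.57, 4.46 and 4.49, a difference of 1.65 (SE 0.13, adjusted p = 0.000254). Its 3 Art libraries were the lowest of all 15, below every Rag -/- library.

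**Figure D3:**
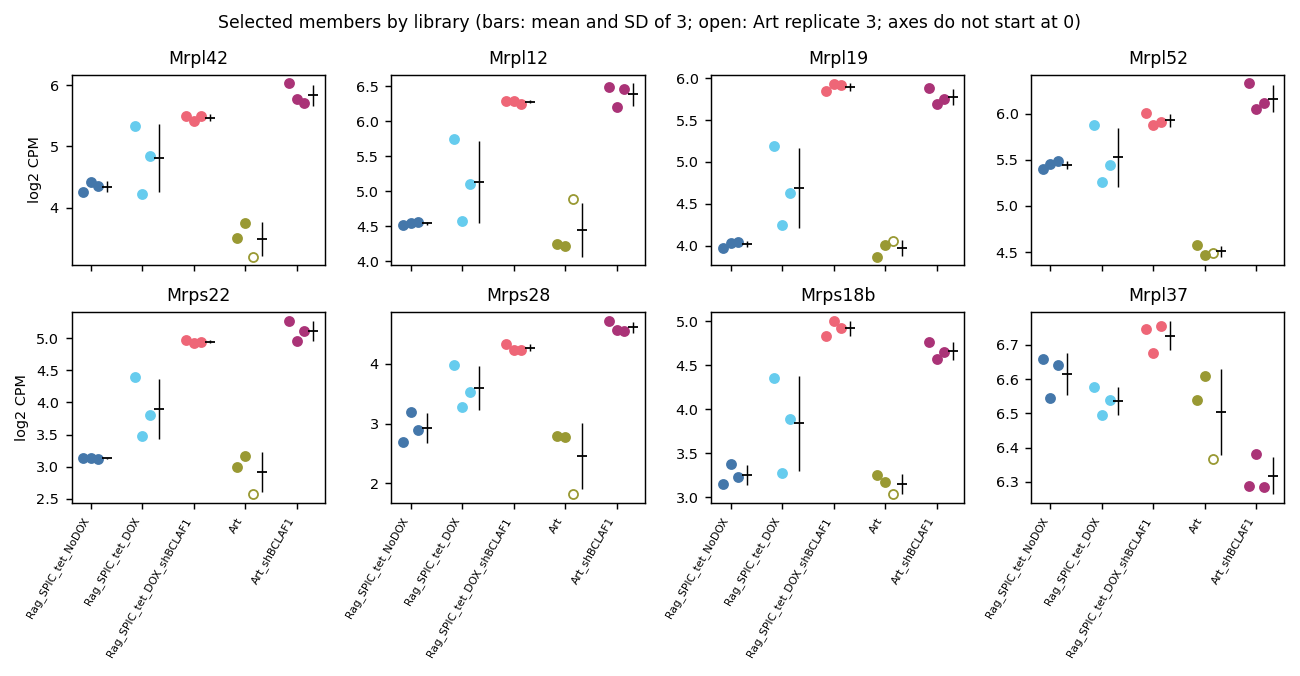
Log2 CPM of 8 members in each library by group, with mean and SD of 3 libraries (bars) and Art replicate 3 as an open circle; the axes do not start at 0. In 7 of the panels both labelled groups have means above those of the other 3 groups, and in Mrpl37 Art_shBCLAF1 is the lowest group.

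Among other members of known role, Mrps18b, Mrps18c and Mrps18a rose by 1.51 (SE 0.14), 1.24 (SE 0.27) and 0.90 (SE 0.13), and without Art replicate 3 by 1.45, 0.95 and 0.97. Mrpl11 rose by 1.42 (SE 0.20, and 1.24 without that library), Mrpl3 by 1.11 (SE 0.32), Mrpl45 by 0.77 (SE 0.17) and Mrpl44 by 0.68 (SE 0.18). Mrpl3 was at 4.39 log2 CPM in Art replicate 3 and at 5.44 and 5.59 in the others, and its difference was 0.73 (SE 0.08) without that library. Mrps5, Mrps35 and Mrps7 rose by 0.86 (SE 0.18), 0.88 (SE 0.15) and 0.65 (SE 0.18), and Mrps36 by 1.71 (SE 0.35), with 5 reads in Art replicate 3 and a difference of 1.33 (SE 0.17) without it. The Mrpl3 call was lost without any 1 of the 3 Art_shBCLAF1 libraries, and those of Mrpl44 and Mrps7 were lost in 5 of 6 fits that left out 1 library.

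Mrpl10, Mrps12, Mrps27 and Mrps34 did not pass with all libraries, at differences of 0.40 (SE 0.30), 0.19 (SE 0.37), 0.88 (SE 0.36) and 0.65 (SE 0.44). In each of them Art replicate 3 stood above the other Art libraries by over 1 unit, for Mrps34 at 4.80 against 3.42 and 3.04. Without it they passed, at 0.75 (SE 0.06), 0.62 (SE 0.12), 1.29 (SE 0.11) and 1.17 (SE 0.13). The smallest called differences with all libraries were those of Mrpl9 at 0.53, Mrps9 at 0.54, Mrps7 at 0.65, Mrpl44 at 0.68 and Mrpl16 at 0.71. Of 34 called members examined this way, 27 passed in all 6 fits that left out 1 library, and none changed sign.

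**Figure D4:**
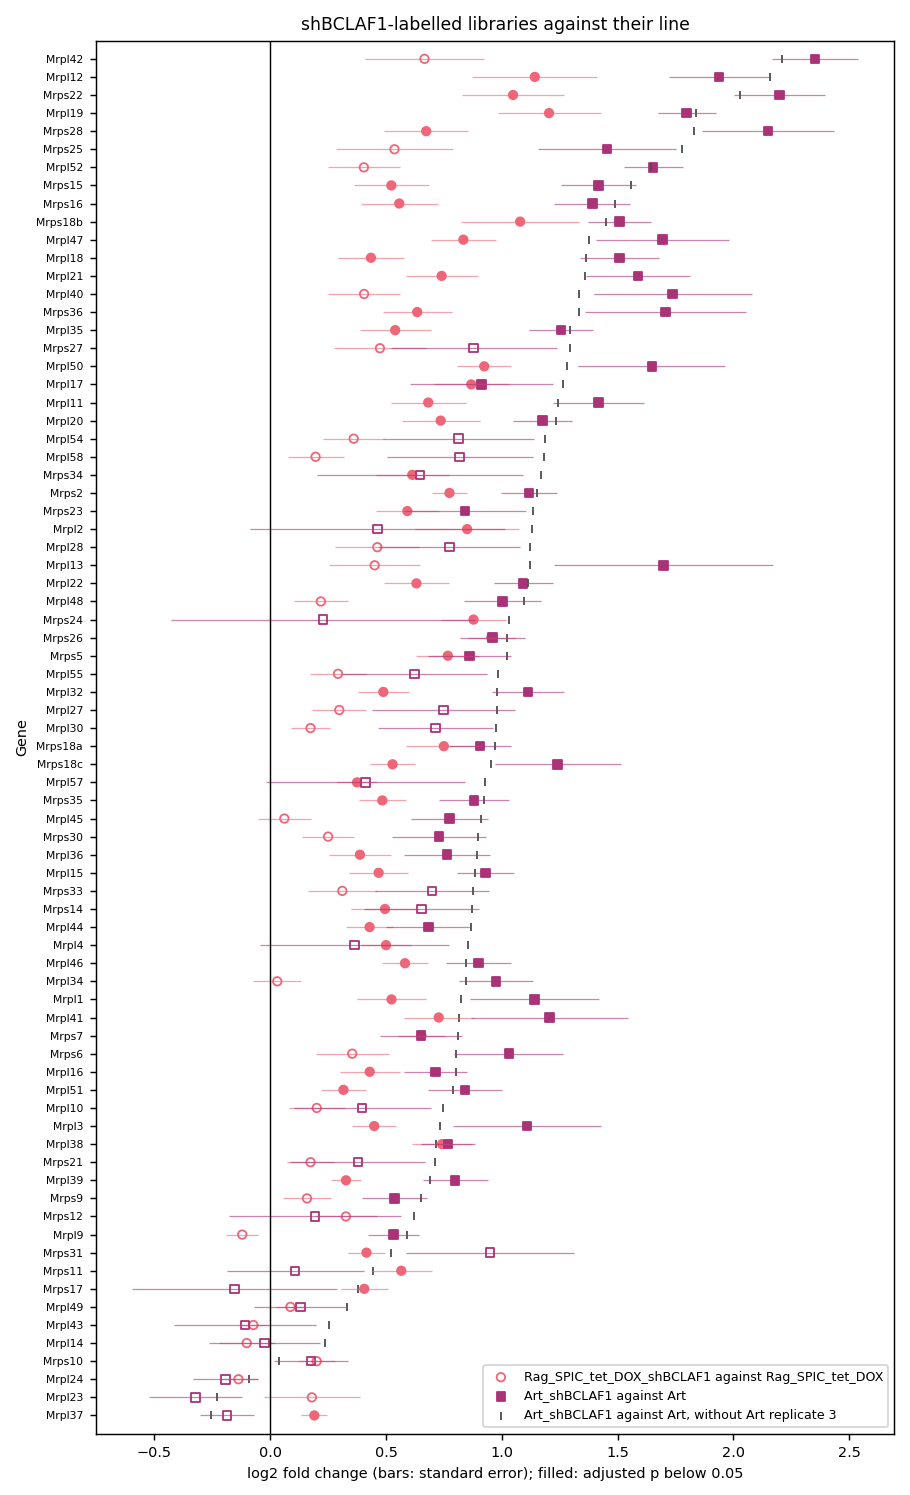
Log2 difference of each member between libraries labelled shBCLAF1 and their line, with standard errors, for the Rag -/- line (circles) and the Art -/- line (squares; filled where adjusted p is below 0.05), and for the Art -/- line without Art replicate 3 (ticks). Most squares lie to the right of the circles, 64 of 76, and the lowest members, Mrpl37, Mrpl23 and Mrpl24, lie near or below 0.

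The 24 members with a CCGGAAG match had a median label difference of 0.44 in the Rag -/- line, against 0.46 in the 43 with a window and no match. In the Art -/- line the medians were 0.94 and 0.77, and 1.06 and 0.89 without Art replicate 3.

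The comparisons of labelled with unlabelled libraries in the 2 lines share no library. Both called 37 members higher, which is 78.7% of the 47 called in the Rag -/- line, 75.5% of the 49 called in the Art -/- line and 48.7% of members, against 13% of all genes called higher in both. Without Art replicate 3 the count was 46 (60.5% of members), against 19.2% of all genes. Across members the differences of the 2 lines had a Spearman correlation of 0.58 (0.62 without that library), against 0.50 over all genes. The 17 members that passed in neither line in the fits used here included Mrpl10, Mrpl23, Mrpl24, Mrps12 and Mrps27. The authors' own adjusted p called Mrpl10, Mrps12 and Mrps27 higher in both lines and Mrpl23 in the Rag -/- line. By it 67 members were higher and 1 lower in the Rag -/- line, and 72 and 1 in the Art -/- line. The matching shares of all genes were not computed.

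Whether the label went with a larger difference in the Art -/- than in the Rag -/- line was tested as an interaction over 12 libraries. The labels name the SPIC construct and DOX for the Rag -/- groups only, so line, construct and DOX cannot be told apart in it. The label difference was larger in 16 members (21.1%) and smaller in 1 (1.32%), Mrpl37, where 31.3% of all genes differed, 14.3% larger and 17% smaller. The share of members that differed, 22.4%, was below that of all genes. The median was 0.45 over members and 0.03 over all genes. Large-subunit genes, which are 47 of the 76 members, accounted for 12 of the 16 and small-subunit genes for 4. Without Art replicate 3 the counts were 26 and 13. Mrpl42 differed most, by 1.69 (SE 0.34, adjusted p = 0.00413), from 0.67 in the Rag -/- to 2.35 in the Art -/- line. Mrps28 followed at 1.48 (SE 0.36), Mrpl40 at 1.33 (SE 0.40), Mrpl52 at 1.25 (SE 0.21) and Mrps22 at 1.15 (SE 0.31).

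These values rest in part on the level in unlabelled cells. Mrpl52 was at a mean of 4.51 log2 CPM in Art and 5.53 in Rag_SPIC_tet_DOX, but at 6.16 and 5.93 in the labelled groups. Mrpl9 rose only in the Art -/- line, by 0.53 against -0.12 (SE 0.07, not passing), and the difference between lines was 0.65 (SE 0.13, adjusted p = 0.00337). Mrpl34 likewise rose by 0.97 (SE 0.16) in Art_shBCLAF1 against 0.03 (SE 0.10) in the Rag -/- line, a difference of 0.94 (SE 0.20, adjusted p = 0.0049). Of the 17 members, 9 passed in all 12 fits that left out 1 library, among them Mrpl42, Mrps28, Mrpl52, Mrps22, Mrpl9 and Mrpl34, but not Mrpl40, which was at 0.93 without Art replicate 3. The count of 17 was 40 without Art replicate 3 (54.4% of all genes). It was 9 without Art_shBCLAF1 replicate 1 and 10 without its replicate 3 (23.1% and 23.9% of all genes). Without replicate 1, 2 or 3 of Rag_SPIC_tet_DOX_shBCLAF1 it was 11, 9 and 9 (23.3%, 23.6% and 24.1%).

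Mrpl37, a mitochondria-specific protein of the large subunit, went the other way. In Art_shBCLAF1 it was at 6.29, 6.38 and 6.28 log2 CPM against 6.54, 6.61 and 6.37 in Art, and in Rag_SPIC_tet_DOX_shBCLAF1 at 6.75, 6.68 and 6.76 against 6.58, 6.50 and 6.54. The difference between lines was -0.38 (SE 0.12, adjusted p = 0.0409) and passed in 2 of 12 fits that left out 1 library. Without Art replicate 3 its fall in the Art -/- line was called, at -0.26 (SE 0.06, adjusted p = 0.003). Its reads numbered 479 to 2929 per library.

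Spic and Myc mRNA moved with the label as well. Spic, which DOX is meant to induce in the Rag -/- line, was at 7.5, 7.43 and 7.44 log2 CPM in Rag_SPIC_tet_DOX_shBCLAF1 against 3.72, 4.59 and 4.31 in Rag_SPIC_tet_DOX. In the Art -/- line it was at 4.47, 4.34 and 4.80 against 0.85, 0.32 and 0.16. Myc, a transcription factor known to drive ribosome production, was at 9.13, 9.20 and 9.29 against 8.06, 3.76 and 6.83 in the Rag -/- line, a difference of 3.0 (SE 1.0, adjusted p = 0.0419) whose call was lost in 4 of 6 fits that left out 1 library and which was 1.77 without Rag_SPIC_tet_DOX replicate 2. In the Art -/- line it was at 8.89, 8.68 and 8.78 against 3.87, 4.08 and 4.26, a difference of 4.72 (SE 0.14, adjusted p = 3.52e-05). The part of SPIC, BCLAF1 or MYC in the member levels was not tested, and SPIC level and the hairpin label cannot be told apart within a line.

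DOX alone went with few calls among members in the fit used here. The authors' own adjusted p called 41 members higher with DOX and 6 lower, and the matching share of all genes was not computed. Against Rag_SPIC_tet_NoDOX, 4 of 76 members were higher in Rag_SPIC_tet_DOX and 0 were lower, where 11.8% of all genes changed, 3.16% higher and 8.67% lower. The members' share, 5.26% higher, was near that background. The median log2 difference was 0.24 over members and 0.00 over all genes, and 67 of 76 values were above 0. In 25 members the groups did not overlap with DOX higher and in 2 with it lower, against 18% and 22.7% of all genes.

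The 4 were Mrpl35 at 0.68 (SE 0.17, adjusted p = 0.0427), Mrpl3 at 0.53 (SE 0.11, adjusted p = 0.031), Mrps30 at 0.47 (SE 0.11, adjusted p = 0.0354) and Mrpl39 at 0.40 (SE 0.08, adjusted p = 0.0283). Mrpl3, whose promoter is shown above, was at 5.85, 5.5 and 5.68 log2 CPM with DOX and at 5.01, 5.25 and 5.19 without. Mrpl35 was at 5.10, 4.49 and 4.70 with DOX and at 3.95, 4.22 and 4.07 without. Replicate 1 was the highest of the DOX libraries in both and replicate 2 the lowest. Larger mean differences with a wide spread did not pass, such as Mrps22 at 0.76 (SE 0.22, adjusted p = 0.0658) with DOX values of 4.40, 3.48 and 3.80 against 3.14, 3.13 and 3.12.

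The 3 DOX libraries differed among themselves. Of 76 members, 65 were above their own 14-library mean in replicate 1 and 8 in each of replicates 2 and 3. Myc ran from 8.06 in replicate 1 through 6.83 in replicate 3 to 3.76 in replicate 2, and the member median from 0.12 through -0.18 to -0.29 in the same order. Spic ran the other way, at 3.72, 4.31 and 4.59, and the part of either gene was not tested. Without replicate 2, 35 members were higher and 1 was lower, where 39.6% of all genes changed. Without replicate 3 the count was 0 (21 members at an unadjusted p below 0.05 in limma), where 0.502% of all genes changed. Without replicates 1, 2 or 3 of Rag_SPIC_tet_NoDOX it was also 0 (14, 19 and 16 at an unadjusted p below 0.05). Of all genes 0.104%, 3.47% and 0.13% then changed.

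Art and Rag_SPIC_tet_NoDOX, the unlabelled groups of the 2 lines without DOX, differed in few members in the fit used here. The authors' own adjusted p called 3 members higher in Art and 32 lower, and the matching share of all genes was not computed. Mrpl52 was lower in Art by 0.94 on the log2 scale (-0.94, SE 0.11, adjusted p = 0.0126) and Mrpl42 by 0.86 (-0.86, SE 0.17, adjusted p = 0.0473). No member was higher in this fit, where 5.14% of all genes changed, 2.58% higher and 2.56% lower. An unadjusted p below 0.05 in limma was found in 8 members. The groups did not overlap in 1 member with Art higher and in 14 with it lower, against 18.4% and 19.4% of all genes. Mrpl52 was at 4.57, 4.46 and 4.49 log2 CPM in Art against 5.40, 5.45 and 5.48, and the groups did not overlap. Mrpl42 was at 3.50, 3.75 and 3.20 against 4.25, 4.42 and 4.36.

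This comparison depended on which libraries were used. Of 76 members, 24 changed sign without Art replicate 3, and those above 0 went from 28 to 18. Without that library 29 members were lower and 2 higher, where 47.4% of all genes changed, 23.2% higher and 24.2% lower. The higher ones were Mrpl3 at 0.37 (SE 0.08, adjusted p = 0.00122) and Mrps14. Mrps34 was then lower, at -0.47 (SE 0.13, adjusted p = 0.00522), as was Mrpl12 at -0.31 (SE 0.09, adjusted p = 0.00554), while both had values near 0 with all libraries. Without Art replicate 1 or 2, or without any 1 of the Rag_SPIC_tet_NoDOX libraries, the count was 0 (7, 6, 4, 2 and 2 members at an unadjusted p below 0.05). Mrpl52 and Mrpl42 were among the calls lost, and at most 0.00866% of all genes were called in these fits. The line and the SPIC construct both differ between these groups and cannot be told apart.

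Genes that work with the mitoribosome were taken from lists written with earlier results of these data known. Counts with all libraries are given for the Rag -/- line and then for the Art -/- line, beside the 28.5% and 25% of all genes that were higher. Of 5 mitoribosomal proteins with other symbols, 2 and 4 rose (5 in the Art -/- line without Art replicate 3) and 0 fell. Ptcd3, a pentatricopeptide protein of the small subunit, rose by 0.83 (SE 0.21) and 1.43 (SE 0.26), and Chchd1 by 0.59 (SE 0.19) and 1.52 (SE 0.26). In the Rag -/- line their calls were lost in 3 and 5 of 6 fits that left out 1 library.

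Of 21 genes for mitoribosome assembly and ribosomal RNA modification, 11 rose and 1 fell in the Rag -/- line and 7 rose and 1 fell in the Art -/- line. Without Art replicate 3 the latter counts were 13 and 4, where 40.6% of all genes were higher and 39.5% lower. Fastkd2, which binds the large ribosomal RNA, rose by 1.34 (SE 0.14) and 1.25 (SE 0.33). The latter call was lost without any 1 of the Art_shBCLAF1 libraries. Mrm1, a ribosomal RNA methyltransferase, rose by 1.10 (SE 0.18) and 1.39 (SE 0.15), and Noa1, an assembly GTPase, by 0.96 (SE 0.20) and 1.25 (SE 0.15). Tfb1m, which methylates the small ribosomal RNA, rose by 1.87 (SE 0.18) in the Art -/- line. The median difference of the list was 0.29 and 0.37 (0.56 without Art replicate 3), against 0.47 and 0.87 (0.97) over the 76 members.

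Mitochondrial translation factors changed less evenly, with 3 of 16 higher and 2 lower in the Rag -/- line and 5 higher and 1 lower in the Art -/- line. With Art replicate 3 left out, 10 were higher and 2 lower. Gfm1, an elongation factor, rose by 0.68 (SE 0.15) and 1.08 (SE 0.11). Oxa1l, which inserts the new proteins into the inner membrane, fell in the Rag -/- line (-0.50, SE 0.06, adjusted p = 0.00101). In Art_shBCLAF1 it was at 7.40, 7.31 and 7.40 log2 CPM. In Art it was lower in replicates 1 and 2, at 6.85 and 6.88, and higher in replicate 3, at 8.06. Of 17 mitochondrial aminoacyl-tRNA synthetases, 8 rose and 1 fell, and 5 rose and 0 fell (11 and 1 without Art replicate 3), Ears2 by 1.21 (SE 0.28) and 1.55 (SE 0.24) and Yars2 by 1.14 (SE 0.19) and 1.14 (SE 0.21).

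Of 16 genes for transcription and upkeep of mitochondrial DNA, 6 rose and 1 fell in the Rag -/- line and 4 rose and 4 fell in the Art -/- line, or 7 and 5 without Art replicate 3. The PGC-1 family of coactivators divided. Pprc1 rose by 1.92 (SE 0.34) and 2.0 (SE 0.11) and Ppargc1b by 2.83 (SE 0.47) and 1.79 (SE 0.27), whereas Ppargc1a fell (-1.79, SE 0.20, and -1.54, SE 0.37). Of the genes encoded in mitochondrial DNA itself, whose mRNAs the mitoribosome reads, only 7 were among the 11551 genes. Of these 7, 0 rose and 2 fell in the Rag -/- line, mt-Co1 (-1.06, SE 0.25) and mt-Nd4 (-0.92, SE 0.22). Their median, relative to each gene's 14-library mean, was -0.25, -0.12 and 0.08 in Rag_SPIC_tet_DOX_shBCLAF1 against 0.28, 0.94 and 0.08 in Rag_SPIC_tet_DOX. It was -0.35, -0.17 and -0.37 in Art_shBCLAF1, -0.28 and -0.56 in Art replicates 1 and 2, and -2.2 in replicate 3. In the Art -/- line the 1 call, mt-Nd1, was lost without 4 of the 6 libraries. Leaving out Art replicate 3, 2 of the 7 were higher and 1 lower, and their median difference went from 0.66 to 0.00.

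Cytosolic ribosomal protein genes, which build the other ribosome of the cell, rose in 67 of 79 cases in the Rag -/- line and 50 in the Art -/- line, with 0 and 1 falling and medians of 0.69 and 1.08. Many of them have near-identical pseudogenes, so single values are uncertain. Of 86 respiratory chain and ATP synthase genes, 46 and 39 rose and 2 fell in each line, with medians of 0.38 and 0.76. Without Art replicate 3 the counts for the Art -/- line were 76 of 79 and 79 of 86 higher. The share of higher genes in the Rag -/- line was 84.8% for the cytosolic and 53.5% for the respiratory list, against 61.8% for the 76 members.

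**Figure D5:**
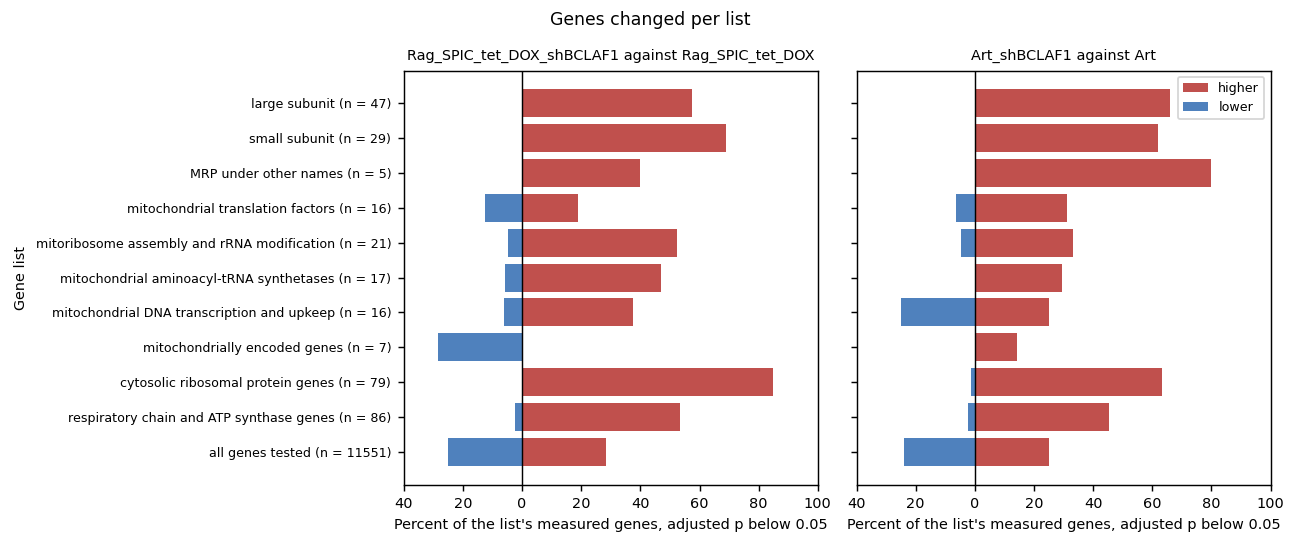
Share of each list's measured genes higher (right of 0) or lower (left of 0) in libraries labelled shBCLAF1 at adjusted p below 0.05, all libraries included, for the Rag -/- line (left) and the Art -/- line (right). The subunit lists lie at 57.4% to 69% higher and 0% lower, beside 28.5% and 25% higher over all genes; mitochondrially encoded genes show 0% and 14.3% higher.

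Markers of cell type differed with the label in part. The summed level of 8 B-lineage progenitor markers, all measured, ran from 5184 to 7519 CPM in the 6 unlabelled Rag -/- libraries and from 5202 to 5369 in the labelled ones, so the ranges overlapped in that line, where 2 of the 8 rose and 2 fell. It ran from 9376 to 11371 in Art against 3849 to 4158 in Art_shBCLAF1, where 7 of the 8 fell. Of the myeloid markers, 4 (Lyz2, Csf1r, Itgam and Tyrobp) were among the 11551 genes. Their sum was 175 to 297 CPM in the unlabelled Rag -/- libraries and 36.1 to 39.2 in the labelled ones. It was 671 to 905 in Art against 26.1 to 42.0 in Art_shBCLAF1. Most of that sum was Itgam, at 9.79, 9.80 and 9.37 log2 CPM in Art and 4.35, 5.18 and 4.40 in Art_shBCLAF1. All 4 genes fell in the Rag -/- line and 2, Itgam and Lyz2, in the Art -/- line, where Tyrobp differed by 0.13 and did not pass. Of the T-cell markers only Lck was among the 11551 genes, at 79.99 to 85.1 CPM in Art and 5.15 to 6.16 in Art_shBCLAF1. The part of these shifts in the member levels was not tested.

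Exons of 22 members overlap those of another protein-coding gene in GENCODE M21, 20 on the opposite strand and 3, Mrps24, Mrps34 and Mrps6, on the same, 1 of the 22 having both kinds. Nothing used here says whether reads were counted by strand, so reads of such neighbours cannot be told apart. Mrpl19, Mrpl18 and Mrpl21 are among the 22.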

How the data were processed

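RNA was extracted with RNeasy, made into TruSeq libraries and sequenced on an Illumina HiSeq, per the labels' protocols. The submitters' processing notes list limma, edgeR, featureCounts 1.4.5, Subread and the build mm9, with no role given for any. The authors deposited log2 CPM values for each library, with 0.5 added to each read count as the values show, and log2 fold changes, in 4 tables of 1 comparison each. The p-values in those tables are the authors' adjusted ones, the highest being 0.0499.

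The tables were joined by gene identifier (152 repeated entries, with the same values in each table), giving 11551 genes; values under 1000 reads came back as whole reads within 0.05 in 100% of cases. Groups were compared with limma 3.58.1 in R 4.3.3 (trended variance, the libraries of the groups compared, Benjamini-Hochberg adjustment over all 11551 genes, two-sided), called at adjusted p below 0.05, tested on simulated data. 1 library column differs from its sample's description by 1 character and was taken as Art replicate 3. Members named are those of textbook role plus the largest and smallest calls and those that differed between lines. The members and lists were chosen with earlier results of these data known. Lengths, exon overlaps and RefSeq windows come from GENCODE M21 and GRCm38.p6, not mm9, so no mm9 position is given. Alternatives were a replicate block, array weights, median centring, spread shared over 15 libraries, voom on recovered reads, log2(CPM + 1), a mean log2 CPM of at least 1, and leaving out each library.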

Additional observations from a re-analysis of the deposited data

Results flagged for a closer look

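For 17 of 76 members (22.4%) the log2 difference between libraries labelled shBCLAF1 and their line differed between the Art -/- and the Rag -/- line. The test was the interaction in limma, at adjusted p below 0.05 over 11551 genes. Of all genes 31.3% passed, so the members' share was below the background. The difference between lines, Art minus Rag, was 1.69 for Mrpl42, 1.48 for Mrps28, 1.33 for Mrpl40, 1.25 for Mrpl52, 1.15 for Mrps22 and 1.07 for Mrpl18. It was 0.94 for Mrpl34, 0.89 for Mrps15, 0.85 for Mrpl21, 0.83 for Mrps16, 0.78 for Mrpl48, 0.72 for Mrpl35 and 0.71 for Mrpl45. It was 0.65 for Mrpl9, 0.63 for Mrpl32 and 0.47 for Mrpl39, and -0.38 for Mrpl37. The SPIC construct and DOX also differ between these groups and cannot be told apart from the line.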

How the results depend on the processing

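In the 2 label comparisons at most 1 called member was lower under any alternative run (with array weights in both lines, and in the Art -/- line with median centring and without Art replicate 3). In the Rag -/- line the count of changed members ranged from 29 (without Rag_SPIC_tet_DOX_shBCLAF1 replicate 2) to 66 (without Rag_SPIC_tet_DOX replicate 1) over fits that left out 1 library. Of all genes 34.2% and 65.6% changed in these fits. In the Art -/- line the count ranged from 36 to 73, where 32.4% and 80.1% of all genes changed. For Art against Rag_SPIC_tet_NoDOX, the 2 calls became 38 with array weights (56.7% of all genes) and 6 with the spread shared over 15 libraries (16.9%). They became 1 with the filter on mean log2 CPM (4.73%) and 0 with the replicate block (5 at an unadjusted p below 0.05 in limma). Leaving out 1 library gave 0 to 31, the latter where 47.4% of all genes changed. For DOX against no DOX, the 4 calls became 50 with array weights (74.4% of all genes) and 7 with shared spread (10%). They became 0 with the replicate block (1.3% of all genes, and 21 members at an unadjusted p below 0.05 in limma). Leaving out 1 library gave 0 to 36, the latter where 39.6% of all genes changed. The 17 differences between lines became 65 with array weights (79.3% of all genes) and 9 to 40 leaving out 1 library (23.1% to 54.4%). With the replicate block the other 3 counts were 45, 48 and 16 (44.8%, 41.4% and 29.4% of all genes). Deviations of same-numbered libraries had correlations from -0.23 to 0.20, which cannot settle whether replicate numbers pair the samples, with 3 libraries a group. Array weights stopped before convergence in 3 of 5 comparisons, those of DOX, of the label in the Rag -/- line and of the differences between lines.

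In Art against Rag_SPIC_tet_NoDOX, 24 of 76 members changed sign without Art replicate 3. Among members named in the text, values that changed sign were, in Art against Rag_SPIC_tet_NoDOX with array weights, Mrpl10 -0.21, Mrpl3 0.33, Mrps12 -0.27, Mrps34 -0.46 and Mrpl57 -0.21. Leaving out 1 library, they ran from -0.21 to 0.33 for Mrpl10, -0.24 to 0.37 for Mrpl3, -0.28 to 0.39 for Mrps12, -0.47 to 0.41 for Mrps34 and -0.21 to 0.59 for Mrpl57. Mrps34 was at -0.16 in DOX against no DOX with array weights. In the label comparisons mt-Nd1 was at 0.17 (Rag -/- line, array weights) and mt-Co1 at -0.55 (Art -/- line, array weights) and from -0.41 to 0.42 leaving out 1 library. The cause was not tested. Median centring shifted the label differences by -0.10 and -0.23, and member medians were then 0.37 and 0.64. Precision is limited by 3 libraries a group and by Art replicate 3, with as few as 5 reads for Mrps36.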
